A study of Rattus norvegicus with 16 samples.

Results

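The genes described here encode the proteins of the cytosolic ribosome in the rat heart. They were taken from the probe annotation by their symbols: Rpl or Rps followed by a number and at most 1 closing letter of a, x or y, together with Rplp0, Rplp1, Rplp2 and Rpsa, without pseudogenes. This gave 70 of the 22093 named genes on the array, 44 for the large (60S) subunit and 26 for the small (40S) subunit. RNA came from the apex of the left ventricle of male RccHan Wistar rats that were 7 to 8 weeks old at the start. All rats ate standard chow; it held no drug for the controls and 3000 ppm phenformin, a biguanide that inhibits mitochondrial complex I, for the treated rats, and lasted 3 or 14 days. The 16 arrays fall into 4 groups of 4 (control and phenformin, day 3 and day 14); the labels call them biological replicates, of groups that the protocol puts at 5 animals. Each started from 300 ng of total RNA from a piece of tissue, so fewer cells of a type and less RNA per cell cannot be told apart.

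A ribosome reads a messenger RNA on its small subunit and joins amino acids on its large subunit. Its proteins are made in matched amounts and assembled on ribosomal RNA in the nucleolus. Their messages begin with a run of pyrimidines, the 5′ terminal oligopyrimidine (TOP) tract, through which LARP1 and the kinase mTORC1 control their translation; a drug that lowers cellular energy can act on mTORC1 through AMPK. The array measured RNA amount and not translation.

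The start regions of these genes share a feature that the choice by symbol did not use. The windows below hold 15 bases before and 15 bases from the annotated start on, from RefSeq sequences of the GRCr8 assembly, written 5′ to 3′ on the gene's strand. Capitals mark each C followed by at least 4 bases that are C or T. The first 3 genes tracked the other ribosomal protein genes most closely from array to array, the next 4 had large differences in a treatment comparison, Rpl31 and Rps28 tracked the others least, and Rpl18 and Rpl26 hold no such run.
Rpl14, chr8:129163605-129163634, plus strand: gggcgggCCCTCTCCCTTCTCgctgagcgc
Rps4x, chrX:71342907-71342936, minus strand: tccagcgcgcgcagCCTCCgaccctaattt
Rps3a, chr2:173827028-173827057, minus strand: gagttgtaCTTCCgCCCTTTTggCTCTCag
Rpl13, chr19:68062499-68062528, plus strand: ctttgcggtgcccgatCCTTTCCgctcggc
Rpl35a, chr11:81235007-81235036, minus strand: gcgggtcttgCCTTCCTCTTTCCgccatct
Rplp2, chr1:205975906-205975935, plus strand: CCTTTCgccgccggacgccgccgaggtcgc
Rpl37a, chr9:81748076-81748105, plus strand: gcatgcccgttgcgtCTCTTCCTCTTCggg
Rpl31, chr9:49143096-49143125, plus strand: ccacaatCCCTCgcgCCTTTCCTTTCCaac
Rps28, chr7:15311319-15311348, minus strand: gcatCCCCTgctcacgtgaCTCCTCTCCgc
Rpl18, chr1:105325255-105325284, plus strand: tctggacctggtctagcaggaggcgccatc
Rpl26, chr10:54109677-54109706, plus strand: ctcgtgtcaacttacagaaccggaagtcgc

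Promoter sequences were found for 60 of the 70 genes. A run of this kind lay in the window of 50 of them (83.3%), against 34.8% of 33469 annotated promoters of the genome. It began within 3 bases of the annotated start in 36 (60%), against 11.2% of all promoters, and the longest run had 20 bases. On the opposite strand the shares were 18.3% and 40.3%. Holding the run went with little in the array data. The median log2 change at day 3 was 0.16 in genes with the run and 0.12 in those without it, and at day 14 it was 0.021 and 0.062. A match describes the letters of the window and does not show where transcription starts in these hearts.

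Read by the brightest probe set of each gene, these messages were among the brighter ones on the array. Their mean log2 intensity over the 16 arrays had a median of 12.03, against 6.02 for all genes, and 57 of the 70 lay above the upper quartile of all genes (8.23). The dimmest were Rpl26 at 6.08, Rpl35 at 6.36 and Rps27 at 6.49. The brightest were Rps29 at 19.34, Rplp1 at 17.27 and Rpl4 at 16.71. Intensities of different probe sets are not set against each other as amounts of RNA. No array exceeded an intensity of 999974, and the sources used here do not say how the authors reached this scale.

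Ribosomal protein genes have many processed copies, and the array holds 237 symbols of such pseudogenes and copies, whose probes may share sequence with the parent gene. The 70 genes were covered by 119 probe sets, 28 genes having more than 1, and the brightest probe set stood for each gene. The chromosome number in the probe set's identifier was that of the gene itself for 47, another chromosome for 10 and not given for 13. Rps29 is such a case: its brightest probe set carries chromosome 7, while the gene lies on chromosome 6. Values are therefore those of a probe set that may also read copies.

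The ribosomal protein genes moved up and down together from array to array, and this was the main pattern in their data. For each array, the deviation of every gene from its own 16-array mean was averaged over the 70 genes. In the day 3 controls this mean deviation was -0.096, 0.061, -0.27 and -0.11 log2 for replicates 1 to 4. In the day 3 phenformin arrays it was 0.0040, 0.12, 0.080 and 0.085. The treated arrays lay close together and the controls far apart, with control replicate 2 inside the treated range. At day 14 the controls gave 0.22, -0.17, -0.16 and 0.13, and the phenformin arrays 0.028, 0.084, -0.015 and 0.019. All 4 treated arrays lay between the low pair and the high pair of controls. The SD was 0.14 in day 3 controls and 0.20 in day 14 controls, against 0.048 and 0.041 in the treated groups (n = 4 each). These spreads are a description and were not compared by a test.

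**Figure D1:**
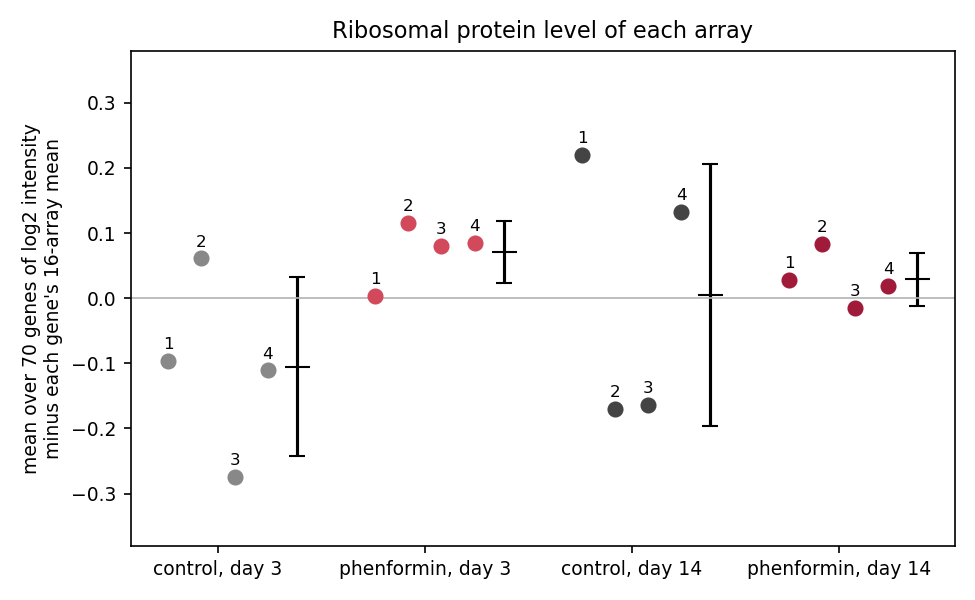
Mean deviation over the 70 ribosomal protein genes (log2 intensity minus each gene's 16-array mean, vertical axis) in each of the 16 arrays by group; numbers are replicate numbers and bars give the group mean ± SD (n = 4). The day 14 controls run from -0.17 to 0.22, while the treated arrays of that day stay between -0.015 and 0.084.

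Single control arrays held the extremes of most genes. Day 3 control replicate 3 was the lowest of the 16 arrays for 38 of the 70 genes, and only 3 genes lay above their own mean there. Day 14 control replicate 1 was the highest array for 32 genes, with 67 above their mean, and day 14 control replicate 4 was the highest for another 14. Day 14 control replicate 2 was the lowest for 15. Among all other genes, in 7 bins of mean level, the median deviation lay between -0.11 and 0.11 in every array. In day 3 control replicate 3 these bins stayed between -0.030 and 0.050, while in day 14 control replicate 1 the bins from a level of 6 up were also high, at 0.042 to 0.11.

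**Figure D2:**
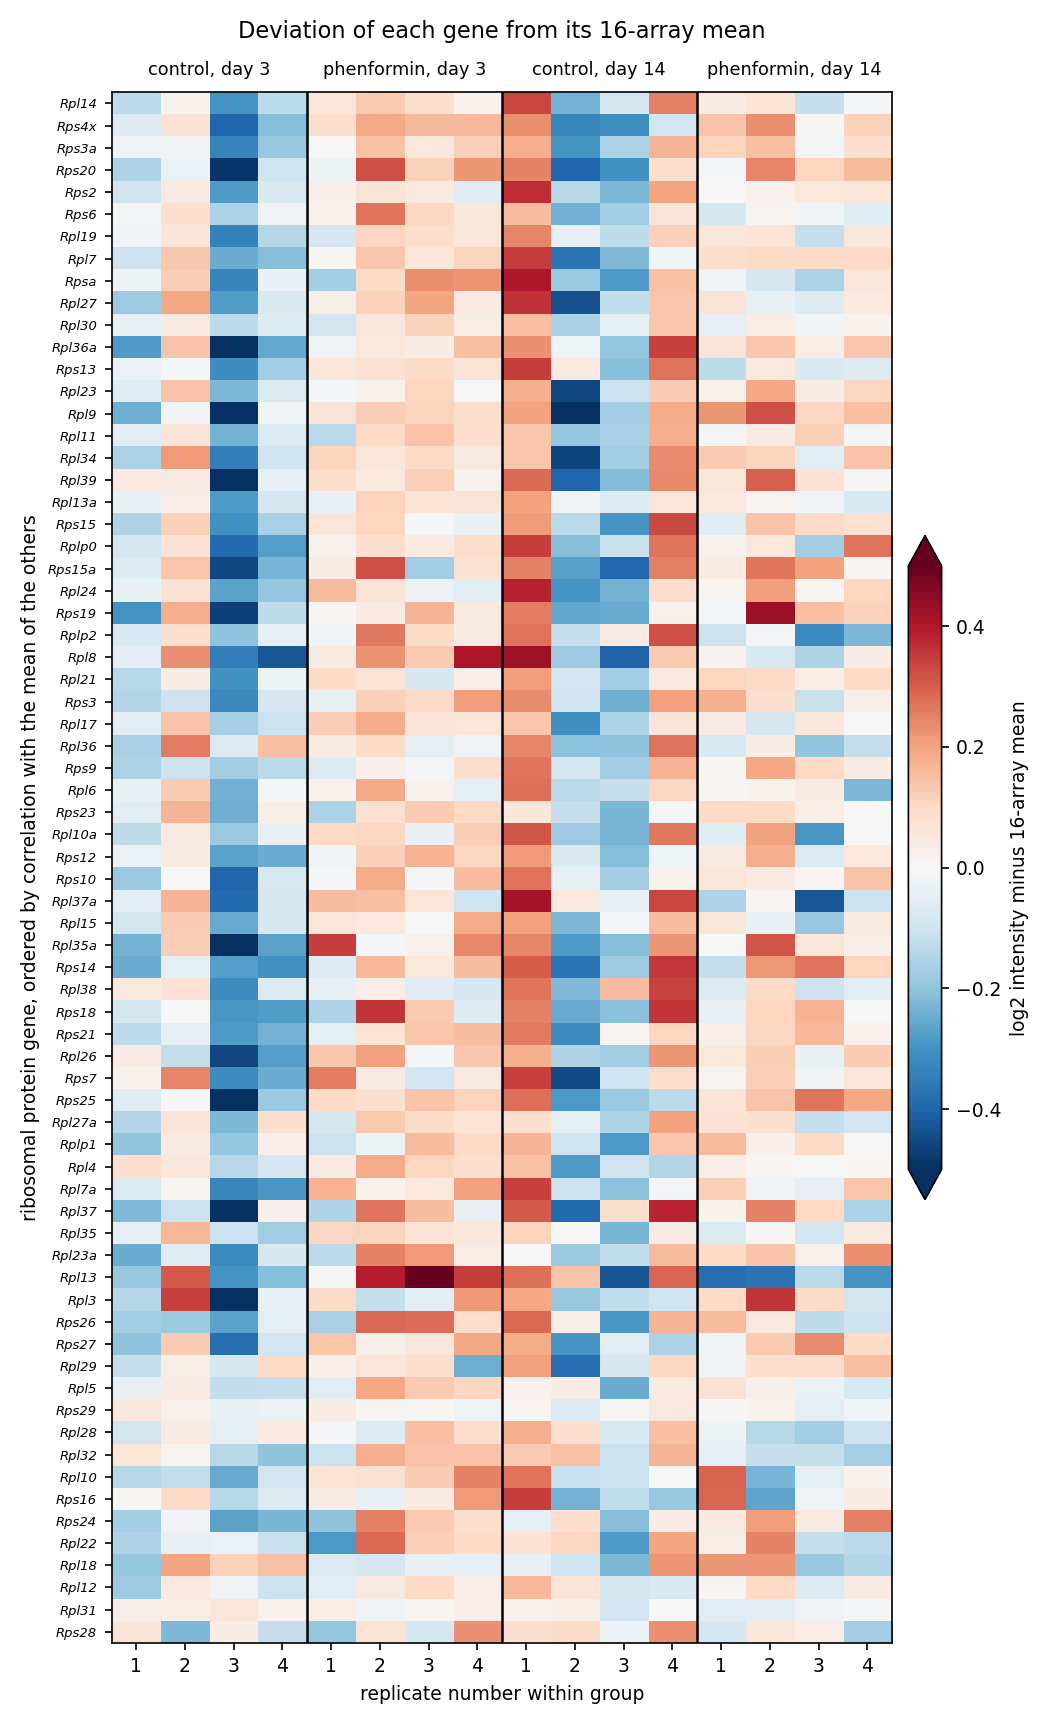
Deviation of each of the 70 genes (rows) from its own 16-array mean in each array (columns, by group and replicate), on a log2 colour scale that ends at ±0.5; genes are ordered by their correlation with the mean of the other 69. Day 3 control replicate 3 is low, and day 14 control replicate 1 high, through nearly the whole column, while the bottom rows, such as Rpl31 and Rps28, do not follow.

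After the mean of each group was subtracted, the 2415 pairs of these genes had a median correlation of 0.63 over the 16 arrays, with quartiles of 0.43 and 0.75, and 96.8% of pairs were above 0. The arrays share library, hybridisation and scale, so these correlations describe the arrays and carry no p. Each gene was also set against the mean of the other 69. The median of these correlations was 0.82, and 38 genes exceeded 0.8. Rpl14, of the large subunit, reached 0.94, Rps4x, an X-linked protein of the small subunit, 0.93, and Rps3a, also of the small subunit, 0.93. The lowest were Rps28 at 0.060, a small subunit protein near the messenger RNA exit, and Rpl31 at 0.10, a protein near the exit of the peptide tunnel. The median over all other genes was -0.044.

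Rpl14 shows the shared course in single values. Its log2 intensity was 8.49, 8.64, 8.32 and 8.48 in day 3 controls and 8.68, 8.75, 8.71 and 8.64 in day 3 phenformin arrays. At day 14 it was 8.95, 8.38, 8.53 and 8.87 in controls and 8.66, 8.69, 8.51 and 8.61 in treated arrays. The groups did not overlap at day 3, by a margin of less than 0.01, and at day 14 the controls enclosed the treated arrays. Rpl31, in contrast, stayed between 10.19 and 10.35 in all 16 arrays.

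With the ribosomal proteins, their listed paralogs and the copies known by symbol left out, the 8 genes most like this course over the 16 arrays, by the same correlation with the mean of the 70 genes after subtracting group means, began with Akr1a1, an aldo-keto reductase, at 0.94. LOC100365810, which RefSeq lists as a pseudogene, and LOC100362366 also reached 0.94. Next came Eif3h, a subunit of the initiation factor eIF3, at 0.93, and Eef1g, a subunit of the elongation factor eEF1, at 0.93. Cdk5rap3 stood at 0.92, Rbs10l2 at 0.92 and Stub1, a ubiquitin ligase, at 0.91. Whether LOC100365810, LOC100362366 or Rbs10l2 are copies of ribosomal protein genes that their symbols do not show was not tested. In bins of level, the share of other genes above 0.8 was at most 3.49%.

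At day 3 nearly all ribosomal protein genes read slightly higher under phenformin, and none passed the test. The log2 change was above 0 in 66 of 70 genes, with a median of 0.16 and a range from -0.12 to 0.42, and no gene reached a change of 1.5-fold. Over all genes the median was 0.00014 and 50.1% were above 0. The test was limma across all 22093 genes with Benjamini-Hochberg adjustment and a threshold of 0.05. None of the 70 genes passed, against 0.566% of all genes in either direction, and the smallest adjusted p by limma was 0.29. Without adjustment, 21 had a p under 0.05 and were higher, against 3.59% of all genes, and none was lower. In 11 genes all 4 treated arrays lay above all 4 controls, against 2.34% of all genes. These were Rpl10, Rpl14, Rpl7a and Rpl9 of the large subunit and Rps3, Rps3a, Rps4x, Rps9, Rps13, Rps20 and Rps25 of the small subunit.

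These counts depended on single arrays. The 21 genes became 3 without day 3 control replicate 3, 12 without control replicate 4, and 10 without phenformin replicate 2, 3 or 4, each left out in turn. The median change was 0.12 without control replicate 3 and 0.24 without control replicate 2; with both of these controls left out it was 0.17 and 10 genes had an unadjusted p under 0.05. With any 1 array left out, between 62 and 68 genes were above 0. Genes move together in each array, so the number of genes on 1 side does not count independent observations.

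In the small subunit all 26 genes were above 0 at day 3, with a median log2 change of 0.22. Of them 12 were higher at an unadjusted p under 0.05, against 3.59% of all genes. Rps4x gave 16.56, 16.69, 16.23 and 16.41 in controls and 16.71, 16.81, 16.78 and 16.79 in treated arrays. The groups lay apart by less than 0.02, control replicate 2 being nearest the treated arrays. The change was 0.30 ± 0.11 (SE), with an adjusted p by limma of 0.35. Rps25, which some viral messages need for initiation, gave 10.70, 10.75, 10.23 and 10.57 in controls and 10.86, 10.84, 10.90 and 10.87 in treated arrays, a change of 0.30 ± 0.12 without overlap.

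Rps20, of the head of the small subunit, had the largest change of the 26. Its values were 14.41, 14.53, 14.07 and 14.46 in controls and 14.54, 14.88, 14.68 and 14.78 in treated arrays. The groups touched without overlapping, and the change was 0.35 ± 0.13 (adjusted p by limma 0.35). Rps3, at the channel by which messenger RNA enters, changed by 0.26 ± 0.10. Rps6, the substrate of the S6 kinases downstream of mTORC1, changed by 0.14 ± 0.089, and Rpsa, which also has a role as a laminin receptor, by 0.16 ± 0.14. Rps19, a gene mutated in Diamond-Blackfan anaemia in humans, changed by 0.24 ± 0.14 and Rps18 by 0.23 ± 0.14. Rps15 changed by 0.16 ± 0.12 and Rps27, among the dimmest, by 0.24 ± 0.11. Rps29, the brightest, differed by 0.0015 ± 0.046, and its probe set on the gene's own chromosome, at 15.75, by -0.071. Whether so bright a probe set can show a change was not tested.

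In the large subunit 40 of 44 genes were above 0 at day 3, with a median of 0.15. Of them 9 were higher at an unadjusted p under 0.05, against 3.59% of all genes. Whether the subunits differ was not tested. Rpl26, near the end of the peptide tunnel, had the smallest p of all 70 genes. It read 6.12, 5.96, 5.62 and 5.80 in controls and 6.21, 6.28, 6.07 and 6.21 in treated arrays, so that control replicate 1 overlapped the treated group. The change was 0.32 ± 0.11 (adjusted p by limma 0.29). Rpl10, which joins late in assembly at the face between the subunits, read 8.23, 8.24, 8.11 and 8.27 in controls and 8.44, 8.44, 8.49 and 8.61 in treated arrays. Its groups lay apart by more than 0.1, with a change of 0.28 ± 0.10 (adjusted p by limma 0.34). Rpl23a, where factors that receive the new chain dock, changed by 0.27 ± 0.096 with overlap.

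The largest change at day 3 was that of Rpl13, at 0.42 ± 0.16 or 1.34-fold (adjusted p by limma 0.36). It read 12.48, 12.97, 12.37 and 12.46 in controls and 12.66, 13.06, 13.24 and 13.02 in treated arrays. Control replicate 2 lay among the treated arrays and treated replicate 1 below it. Rpl35a changed by 0.39 ± 0.15, from 13.86, 14.21, 13.50 and 13.83 in controls to 14.44, 14.09, 14.11 and 14.33, again with control replicate 2 inside the treated range. The proteins of the stalk, which calls elongation factors to the ribosome, gave 0.23 ± 0.13 for Rplp0, 0.11 ± 0.097 for Rplp1 and 0.15 ± 0.10 for Rplp2.

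Rpl5 and Rpl11, which with 5S ribosomal RNA bind the p53 regulator Mdm2, gave 0.15 ± 0.079 and 0.12 ± 0.096 at day 3. Rpl3 and Rpl4, which reach into the core of the subunit, gave 0.13 ± 0.15 and 0.13 ± 0.079. Rpl10a, Rpl13a, Rpl22, Rpl32, Rpl35 and Rpl39 lay between 0.13 and 0.22. Rpl38, needed for the translation of some Hox messages in mouse, gave 0.029 ± 0.11. The 4 genes below 0 were Rpl18, Rpl36, Rpl31 and Rpl29, of which Rpl18 was the lowest at -0.12 ± 0.12. Rpl18 read 7.01, 7.40, 7.31 and 7.35 in controls against 7.13, 7.12, 7.16 and 7.16 in treated arrays, so that the treated values lay inside the control range.

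The day 3 values did not depend on a single range of brightness. In the bins of mean level that hold these genes, their median change lay between 0.12 and 0.23, while the other genes of the same bins had medians between -0.026 and 0.014. At day 14 the medians of the same bins ran from -0.030 to 0.10 for the ribosomal protein genes and from -0.057 to 0.0098 for other genes.

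**Figure D3:**
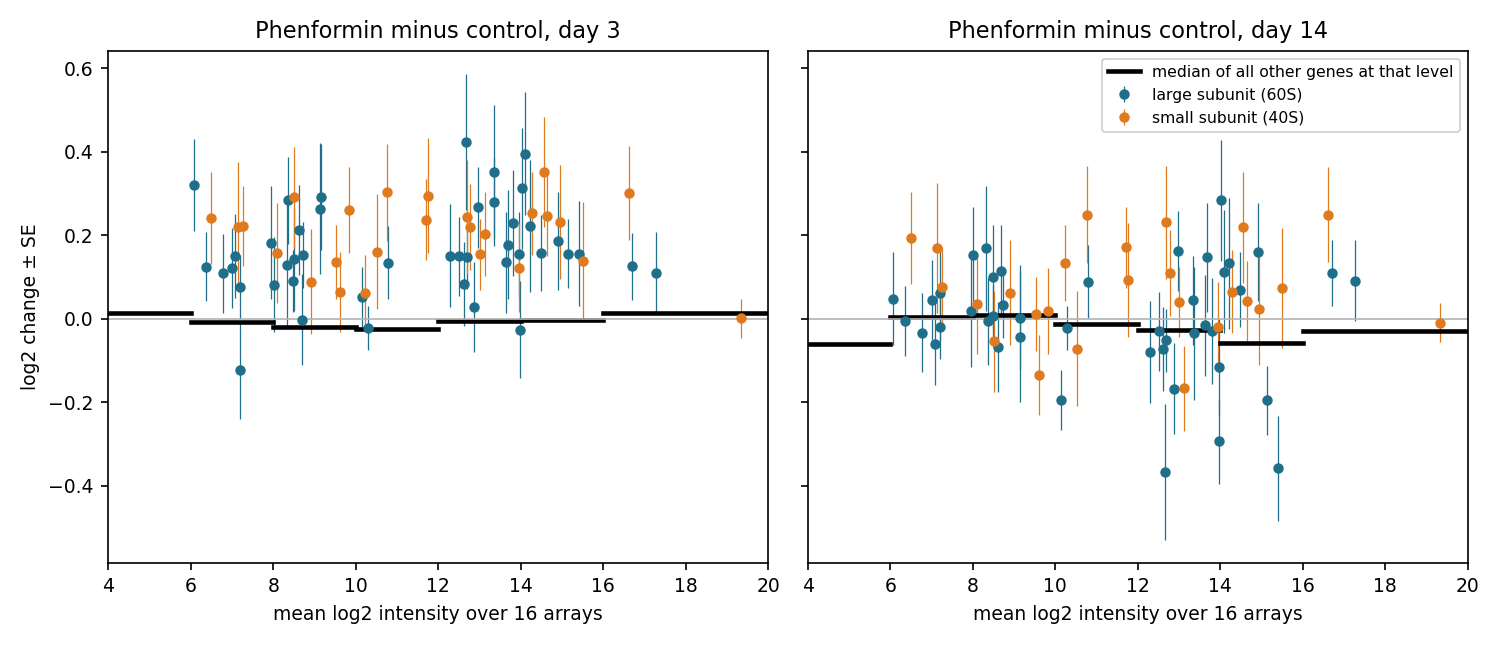
Log2 change of phenformin minus control (± SE from limma) for the 70 genes against their mean log2 intensity, at day 3 (left) and day 14 (right), coloured by subunit; black bars give the median of all other genes in bins of that level. At day 3 66 of the 70 points lie above 0, and at day 14 42 do.

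At day 14 the ribosomal protein genes lay on both sides of 0 and again none passed. The change was above 0 in 42 of 70 genes, with a median of 0.034 against -0.030 over all genes, and it ranged from -0.37 to 0.28. None passed limma's adjusted threshold, against 0.0724% of all genes, and the smallest adjusted p was 0.29. Without adjustment 2 genes were higher at p under 0.05, against 3.87% of all genes, and 5 were lower, against 6.96%. No gene had its groups apart, against 2.04% of all genes higher and 3.09% lower. The small subunit had 20 of 26 genes above 0 with a median of 0.063, and the large subunit 22 of 44 with a median of -0.0014.

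The sign of the day 14 median turned with single control arrays. It was -0.029 without control replicate 3, with 28 genes above 0, -0.014 without control replicate 2, and 0.096 without control replicate 1, with 57 genes above 0. The 7 genes with an unadjusted p under 0.05 became 11 without control replicate 1, 4 without control replicate 2, and 3 without phenformin replicate 2 or 4.

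Both counts at an unadjusted p under 0.05 on day 14 were near the shares of all genes given above. Whether the subunits differ at day 14 was not tested. The 2 genes on the higher side belonged to the small subunit. Rps4x read 16.86, 16.30, 16.32 and 16.53 in controls and 16.77, 16.86, 16.63 and 16.74 in treated arrays, a change of 0.25 ± 0.11 (adjusted p by limma 0.44). Rps25 read 11.03, 10.47, 10.57 and 10.63 in controls and 10.82, 10.90, 11.03 and 10.95 in treated arrays, a change of 0.25 ± 0.12 (adjusted p by limma 0.46). In both genes control replicate 1 lay within or above the treated arrays and the other controls lay below all of them. Rpl9, near the base of the stalk, had the highest change at day 14, 0.28 ± 0.15.

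The 5 on the lower side belonged to the large subunit. Rplp2, a stalk protein, read 14.23, 13.84, 14.00 and 14.28 in controls and 13.85, 13.95, 13.64 and 13.73 in treated arrays, a change of -0.29 ± 0.10 (adjusted p by limma 0.29). Rpl37a read 15.81, 15.45, 15.36 and 15.73 in controls and 15.24, 15.41, 14.97 and 15.30 in treated arrays, a change of -0.36 ± 0.13 (adjusted p by limma 0.30). Treated replicates 1 and 2 of Rplp2, and treated replicate 2 of Rpl37a, reached into the control range. Rpl13 changed by -0.37 ± 0.16, Rpl28 by -0.19 ± 0.072 and Rpl32 by -0.20 ± 0.082. The second probe set of Rpl37a, dimmer at 11.07, differed by 0.036, and that of Rpl32, at 11.17, by -0.0085, so these lower values each rest on 1 probe set. The second probe set of Rplp2 gave -0.15.

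Taking the mean of both days, 60 of 70 genes were above 0 with a median log2 change of 0.10, and none passed, against 1.21% of all genes. Without adjustment 15 were higher at p under 0.05, against 4.74% of all genes. Rps4x at 0.27 ± 0.080, Rps25 at 0.28 ± 0.082 and Rpl23a at 0.21 ± 0.068 had the smallest p, with adjusted values by limma of 0.11, 0.12 and 0.15. Without day 14 control replicate 1, Rps4x and Rps25 passed, both at 0.33, with adjusted p by limma of 0.033 and 0.041. The 15 genes became 26 without that array, 24 without day 3 control replicate 2, 9 without day 14 phenformin replicate 2, and 7 without day 3 control replicate 3 or day 14 control replicate 2 or 3.

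The phenformin effect at day 14 was lower than that at day 3 in 64 of 70 genes, with a median difference of -0.13 against -0.023 over all genes. No ribosomal protein gene passed the test of this difference, and 0% of all genes did. Without adjustment 6 were lower at p under 0.05, against 3.88% of all genes. They became 12 or 13 without day 14 control replicate 2 or 3, and 5 without day 14 control replicate 1. The median difference was -0.067 without day 14 control replicate 1. Without day 3 control replicate 3, the genes with a higher effect at day 14 rose from 6 to 21. Rpl13 differed most, at -0.79 ± 0.23 (adjusted p by limma 0.45). Its day 14 values were 12.94, 12.81, 12.24 and 12.96 in controls and 12.29, 12.30, 12.53 and 12.37 in treated arrays. Its mean was thus higher under phenformin at day 3 and lower at day 14. Neither change passed (adjusted p by limma 0.36 and 0.43), and the groups overlapped on both days. At day 14, control replicate 3 lay below all treated arrays. The other 3 probe sets of Rpl13, read in the same arrays, had the same signs. Their changes were 0.19 to 0.38 at day 3 and -0.22 to -0.34 at day 14. Rplp2 differed by -0.45 ± 0.14 and Rpl32 by -0.35 ± 0.12.

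**Figure D4:**
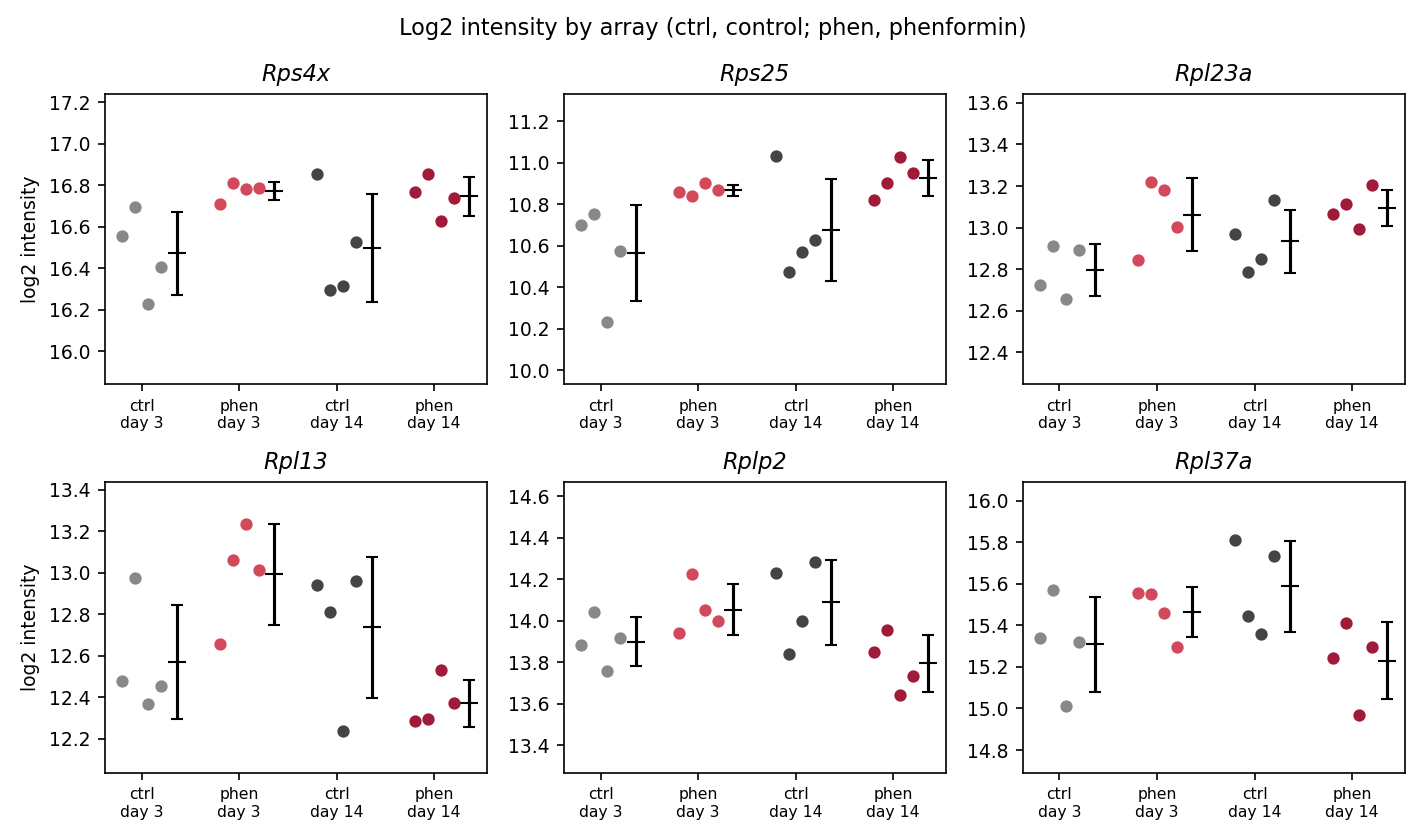
Log2 intensity of 6 ribosomal protein genes in each array by group (points), with the group mean ± SD (n = 4); every vertical axis spans 1.4 log2 units and does not start at 0. Rps4x, Rps25 and Rpl23a have higher treated means on both days, while Rpl13, Rplp2 and Rpl37a have higher treated means at day 3 and lower ones at day 14.

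In the controls, most ribosomal protein genes read slightly higher at day 14 than at day 3, and none passed the test. From day 3 to day 14, 59 of 70 genes were higher, with a median of 0.11 against 0.014 over all genes. The medians of the treatment comparisons, which share these control arrays, were 0.16 at day 3, 0.034 at day 14 and 0.10 for the mean of both days. None passed, as 0% of all genes did. Without adjustment 4 were higher at p under 0.05, against 5.07% of all genes: Rpl36a, Rps13, Rpl37a and Rps9. This count was near the share of all genes. No ribosomal protein gene had its groups apart, against 557 of 22093 genes higher and 471 lower. Rpl36a, the homologue of which in yeast gives resistance to cycloheximide when mutated, read 8.87, 9.29, 8.60 and 8.89 at day 3 and 9.38, 9.13, 8.96 and 9.49 at day 14, a change of 0.33 ± 0.13 with overlap (adjusted p by limma 0.40). Rps13 changed by 0.24 ± 0.10. The median was 0.031 without day 14 control replicate 1, with 44 genes above 0, and 0.18 without day 14 control replicate 2. The 4 genes became 18 without day 14 control replicate 3, 16 without replicate 2, 1 without replicate 1 and 0 without replicate 4; they became 11, 0 and 2 without day 3 control replicate 2, 3 and 4.

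The copies and the further probe sets lay mostly on the same side of 0 as the parent genes. Of the 237 pseudogene and copy symbols, 209 were above 0 at day 3 with a median log2 change of 0.19, and 149 at day 14 with a median of 0.059; none passed. The 49 probe sets that did not stand for their gene had medians of 0.18 at day 3, with 46 above 0, and 0.036 at day 14, with 30 above 0. Among the 28 genes with several probe sets, all had the sign of the brightest in 25 at day 3 and 22 at day 14. With the probe set on the gene's own chromosome in its place, the medians of the 68 genes that had one were 0.15 and 0.034. Rpl37 and Rpl37a had none and were left out of that fit.

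Other parts of the translation machinery were read from lists drawn up from general knowledge, and no gene of these lists passed at either day. Among 8 measured ribosomal proteins and paralogs outside the symbol rule, the median log2 change was 0.15 at day 3, with 6 above 0, and -0.041 at day 14. Fau, which encodes a small subunit protein fused to a ubiquitin-like one, gave 0.19 ± 0.089 at day 3. Rpl3l, the paralog of Rpl3 in striated muscle, gave 0.22 ± 0.11. Their correlations with the mean of the 70 genes had a median of 0.71.

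Elongation factors and other messages with a TOP tract stood at 0.052 at day 3 over 18 genes and at 0.0025 at day 14, with a median correlation of 0.66. Eef2, the factor that moves the ribosome along the message, gave 0.21 ± 0.074 at day 3, and Vim, which encodes the intermediate filament of fibroblasts and endothelium, -0.66 ± 0.17. The 25 initiation factors had medians of 0.0037 and -0.024. The 35 genes of ribosome biogenesis had medians of -0.020 at day 3 and 0.084 at day 14, when 29 were above 0, among them Utp18 at 0.24 ± 0.081 and Mybbp1a at 0.24 ± 0.083. The 12 genes of RNA polymerase I, which transcribes ribosomal RNA, had medians of -0.037 and 0.049.

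The 19 genes of mTORC1, LARP1 and MYC control had medians of 0.015 at day 3 and -0.049 at day 14. Ddit4, an inhibitor of mTORC1 induced by stress, gave -1.03 ± 0.33 at day 3 (adjusted p by limma 0.23), and Myc -0.55 ± 0.24. Eif4ebp2, which blocks the cap-binding factor eIF4E, gave -0.37 ± 0.11 at day 14 (adjusted p by limma 0.19). The amount of these messages does not report the activity of the kinase.

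The 7 ventricular cardiomyocyte markers had a mean log2 intensity of 17.32. In the adipocyte list 5 of 5 markers lay under 6, and in the lymphocyte list 4 of 5 did. Of the 4 atrial markers, Nppa stood at 15.67, Sln at 7.93, Myl4 at 6.40 and Myl7 at 5.64. Intensities of different probe sets are not set against each other, so these levels do not tell ventricle from atrium. Markers of some other cells also differed in the day 3 comparison, in which the ribosomal protein genes read higher. All 8 fibroblast markers were below 0 at day 3, with a median of -0.77, and the mean of the list ran from 12.30 to 12.74 in controls and from 11.49 to 12.21 in treated arrays, without overlap. All 8 macrophage markers were below 0, with a median of -0.31, and the list ran from 7.65 to 7.88 in controls and from 7.38 to 7.67 in treated arrays, with a slight overlap. All 5 red blood cell markers were below 0, with a median of -0.47. No fibroblast, macrophage or red blood cell marker passed at day 3, with smallest adjusted p by limma of 0.065, 0.099 and 0.058. Of 8 cell cycle genes 6 fell past the threshold by limma, and the list ran from 6.35 to 6.66 in controls and from 5.27 to 5.47 in treated arrays.

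In the day 14 treatment comparison all 5 red blood cell markers were below 0, with a median of -0.95, and the list ran from 7.65 to 9.03 in controls and from 6.92 to 7.69 in treated arrays, with a slight overlap. Fibroblast markers had a median of -0.24, with 7 of 8 below 0, and cell cycle genes a median of -0.16, with 6 of 8 below 0. From day 3 to day 14 in controls, while 59 of the 70 ribosomal protein genes were higher, 7 of 8 fibroblast markers were lower, with a median of -0.63, and all 8 cell cycle genes were lower, with a median of -0.44. No marker of these lists passed the threshold by limma in either comparison. The fibroblast list ran from 11.65 to 12.26 in day 14 controls and the cell cycle list from 5.38 to 6.38.

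Within groups, in contrast, the correlations of fibroblast and cell cycle markers with the mean of the 70 genes were mostly positive. After subtracting group means, these correlations had medians of 0.56 and 0.58. They ran from 0.30 to 0.78 over the fibroblast markers and from -0.096 to 0.69 over the cell cycle genes. Not every gene of these lists thus went up and down with the ribosomal protein genes. The part of these cells in the ribosomal protein values was not tested. The endothelial and the smooth muscle lists had median log2 changes of 0.14 and -0.0082 at day 3, and of -0.17 and -0.019 at day 14. The atrial list had medians of 0.20 and 0.21, with 3 of 4 genes above 0 on each day. Nppa gave 1.36 ± 0.42 and 1.94 ± 0.42, and Sln -1.42 ± 0.95 and -0.96 ± 0.95. For the mean of both days, Nppa, 2 red blood cell markers and 3 cell cycle genes passed by limma, against 1.21% of all genes. Nppa was higher, and the others were lower. No defining marker was at 0 in this file, which gives every probe set a value.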

How the data were processed

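Each deposited value is a linear intensity of 1 probe set in 1 array, made by the authors with RMA, per the submitters' processing notes; no source used here says how the linear scale was reached. Their log2 was taken without further normalisation. Of 68842 probe sets, 23446 had exactly 1 symbol, 505 had several and 44891 had none; the brightest single-symbol probe set stood for a gene. Rpl41 and Rps27a had no probe set of 1 symbol. Groups came from the sample labels. The test was limma 3.58.1 under R 4.3.3 (1 mean per group over 16 arrays, mean-variance trend, two-sided, Benjamini-Hochberg over 22093 genes); tables were made with pandas 2.3.3. The fit was run on simulated data in which genes varied independently. The ribosomal protein genes moved together, so the simulation does not show how often their changes would be found. The members, lists, tests and the naming rule were chosen with earlier results of these data known. The rule named the 3 members of smallest p per comparison, the 3 highest and 3 lowest changes at each day, the 3 brightest and dimmest, a fixed set of well-studied members, the 8 most correlated other genes, and up to 3 genes per list; other members were named for their values. Alternatives changed scale, normalisation, filter, probe set rule, trend, weights, arrays fitted and replicate block, and left out each array in turn. The number of arrays limits the precision.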

Additional observations from a re-analysis of the deposited data

Results flagged for a closer look

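In groups of 4 arrays, a gene was looked at again where 1 array stood far from the other 3 by Dixon's criterion; chance gives this in about 1 of 20 groups. Over the 70 ribosomal protein genes and their mean, 284 groups were examined and 9 met it, against 14.2 given by chance; the genes move together, so the groups are not independent. All 9 were low values. Rpl39, which lines the peptide tunnel, read 13.56 in day 3 control replicate 3, while the other 3 arrays lay between 14.17 and 14.26. Rpl32 read 15.03 in day 3 phenformin replicate 1, below 15.28 to 15.32, and 15.03 in day 14 control replicate 3, below 15.27 to 15.31. Rpl10a read 12.26 in day 3 phenformin replicate 3, below 12.39 to 12.42. Rpl5 read 8.47 in day 14 control replicate 3, below 8.74 to 8.77. In day 14 phenformin replicate 3, Rpl19 read 12.39, below 12.56 to 12.57, Rpl21 read 10.82, below 10.88 to 10.89, and Rpl34 read 13.64, below 13.80 to 13.83. Rpl6 read 12.39 in day 14 phenformin replicate 4, below 12.62 to 12.66.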

How the results depend on the processing

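Counts of ribosomal protein genes past the adjusted threshold stayed at 0 under each of the 28 alternatives (2 of them chosen after seeing the data) that gave a value, at day 3, at day 14, for the difference between days and for controls. For the mean of both days they ran from 0 to 2 with 1 array left out, the 2 being Rps4x and Rps25 without day 14 control replicate 1, both at 0.335. The median change kept its sign under all alternatives at day 3 (0.116 to 0.24 on the log2 scale), for the mean of both days (0.07 to 0.146), for the difference (-0.195 to -0.067) and for controls (0.031 to 0.181); these ranges leave out 1 array in turn. At day 14 it ran from -0.029 to 0.096. Normal scores of ranks, another scale, gave 0.045 at day 3 and 0.011 at day 14. With the replicate number as a block the medians were 0.156 and 0.034, and 0 genes passed; same-numbered arrays of 2 groups correlated between -0.185 and 0.216, so the numbers were not taken to pair arrays, and the block changed no call. Of 48 results on 38 named genes, 43 never changed sign. At day 3, Rpl36 turned to 0.0257 with probe sets averaged and 0.0237 without day 3 control replicates 2 and 3, the arrays farthest out in the first 2 principal components, and ran from -0.0949 to 0.045 with 1 array left out. Rpl31 gave 0.0153 with a further quantile normalisation and 0.00401 with normal scores. Rps29 gave -0.00759 and -0.0059 in these, -0.0274 with probe sets averaged, -0.00935 with array weights, -0.0715 with the own-chromosome probe set, -0.00917 without both controls, and -0.0111 to 0.0184 with 1 array left out. Rpl38 gave -0.000515 with probe sets averaged, -0.00175 with weights, -0.0295 with the own-chromosome probe set, -0.0279 without both controls, and -0.0551 to 0.0745 with 1 array left out, and Rpl3 ran from -0.0204 to 0.273. The cause was not tested. A fit of only the compared arrays gives no separate value for the mean of both days or the difference.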
